A study of Mus musculus with 12 samples.

Results

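The transcripts described here are 6 secretory products of the lung epithelium, read in cells recovered from the airspaces: the club cell secretoglobins Scgb1a1 and Scgb3a2, and the surfactant genes Sftpc, Sftpa1, Sftpb and Sftpd. They were chosen by name, as 6 of the 26855 genes in the count table, and the 2 secretoglobins are kept apart from the 4 surfactant genes. All libraries came from mouse bronchoalveolar lavage cells that the labels call alveolar macrophages, taken from lungs injured with bleomycin 14 days earlier. The cells were passed through a size filter, which gave fractions rich and poor in a population the authors abbreviate BAAM, and then sorted into high, intermediate and low gates on side scatter and on the neutral lipid dye BODIPY. The 12 libraries form 3 groups of 4, titled UPBIG, UPSMALL and DOWN, and the labels do not say which title is which fraction or gate. Every group had received bleomycin, no untreated group was used here, and strain, age, sex and the number of mice behind a library are not given. Since nothing says that replicates were separate mice, a p-value here speaks of the spread among libraries alone, and that spread may be technical.

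Club cells line the small airways and release secretoglobins, small dimeric proteins of the airway lining fluid. Alveolar type 2 cells make surfactant, in which the hydrophobic proteins encoded by Sftpb and Sftpc spread the lipid film and the collectins encoded by Sftpa1 and Sftpd bind microbes and lipid. Alveolar macrophages take up and break down used surfactant, and in textbook descriptions they do not transcribe these genes.

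The libraries held 17109669 to 23282621 counts and 14906 to 17730 detected genes, and all 12 alveolar macrophage markers examined were above 0 in every library. Levels are given as CPM, the counts scaled to TMM-corrected library totals, and 3 counts correspond to 0.11 to 0.205 CPM. A gene was called where the edgeR adjusted p was under 0.05. In the joint fit 12625 genes were tested, of which 17.5% were called between UPBIG and DOWN (9.03% higher and 8.48% lower), 5.70% between UPBIG and UPSMALL (3.22% higher and 2.49% lower) and 1.14% between UPSMALL and DOWN (0.594% higher and 0.547% lower). Against that background, 1 of the 3 members that passed the low-count filter was called, and only in the first of these comparisons. The other 3 members, Sftpa1, Sftpb and Sftpd, were too low to be tested.

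These transcripts were uneven within groups, and 3 libraries stood apart. UPBIG replicate 2 held the most Scgb1a1 and Scgb3a2, and UPBIG replicate 3 held the most Sftpc and Sftpa1. UPSMALL replicate 4 held the second highest Scgb3a2 level and the highest Sftpd level. It was also the highest library for 9 of 18 club and secretory genes, 9 of 17 epithelial structure genes and 7 of 14 ciliated cell genes, against 12.2% of the 17480 genes with 10 or more counts. The same library had the lowest summed level of the alveolar macrophage markers, 61490 CPM, against 79490 to 126900 CPM in the other 11. Most of each sum was Lyz2, at 45580 CPM in that library and 70610 to 112200 CPM in the others. Of the remaining markers, Chil3, Mrc1 and Marco were highest in that library, Cd68 was lowest there, and the rest were neither. Results are given with and without these libraries where it matters.

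**Figure D1:**
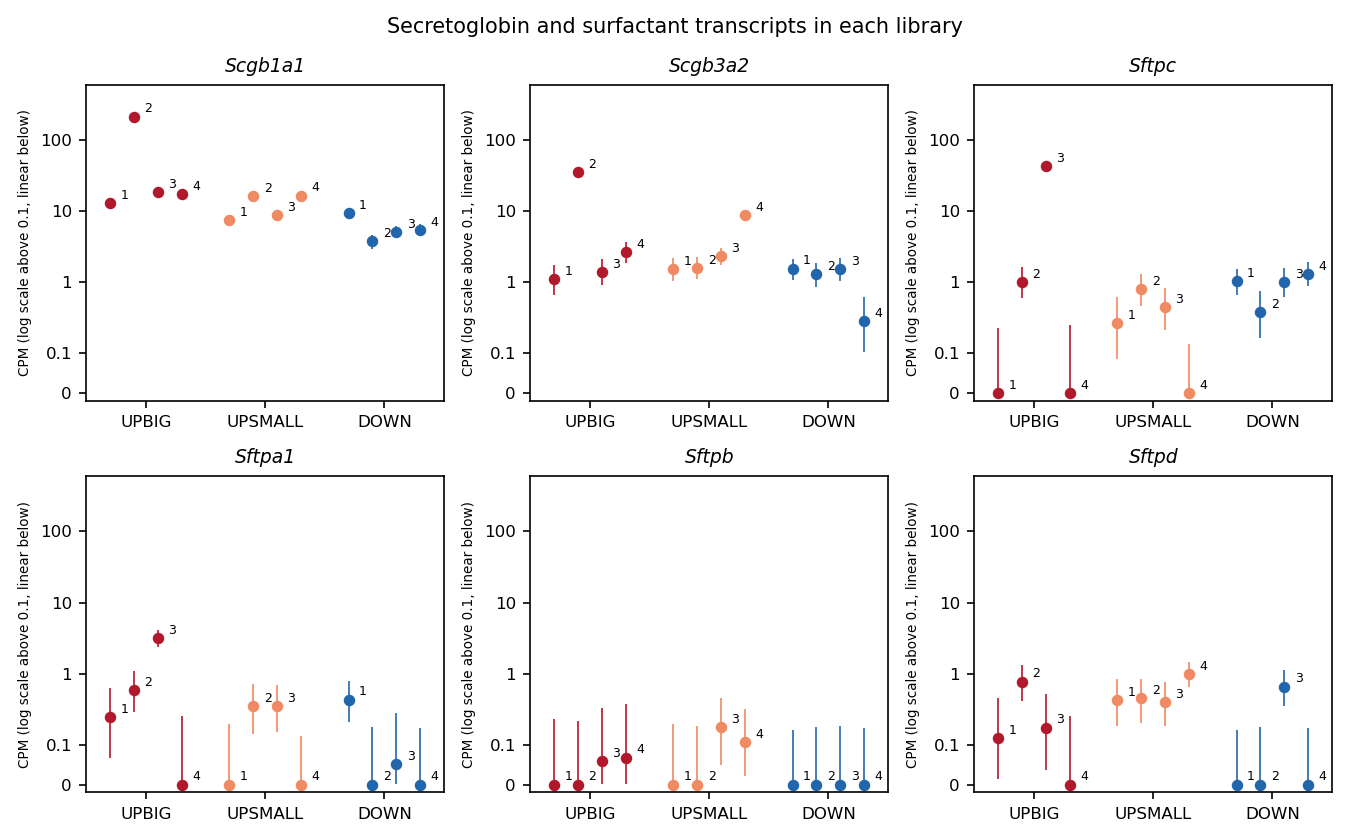
Level of each member in each library on a log axis above 0.1 CPM that is linear below it, with 95% counting intervals and the replicate number beside each point. Scgb1a1 and Scgb3a2 were highest in UPBIG replicate 2, at 212 and 34.8 CPM, and Sftpc in UPBIG replicate 3, at 42.7 CPM.

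Upstream sequence in the RefSeq promoter table was matched for 2 of the 6 members, Sftpa1 and Sftpb, and both are on the plus strand. They are shown because Sftpa1 was highest in the library where Sftpc was highest, while Sftpb, which type 2 cells make beside them, had 1 count there. Each run is the 250 bases before RefSeq's start on GRCm38.p6, at chr14:41131538-41131787 for Sftpa1 and chr6:72304360-72304609 for Sftpb. Capitals mark matches, on either strand, to TATAA and to TNAAGTG, a core bound by NKX2 homeodomain proteins.
Sftpa1: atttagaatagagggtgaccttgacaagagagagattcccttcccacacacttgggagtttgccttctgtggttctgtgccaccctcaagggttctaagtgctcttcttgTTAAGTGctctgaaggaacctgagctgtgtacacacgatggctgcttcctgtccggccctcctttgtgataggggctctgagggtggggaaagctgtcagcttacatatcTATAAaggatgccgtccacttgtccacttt
Sftpb: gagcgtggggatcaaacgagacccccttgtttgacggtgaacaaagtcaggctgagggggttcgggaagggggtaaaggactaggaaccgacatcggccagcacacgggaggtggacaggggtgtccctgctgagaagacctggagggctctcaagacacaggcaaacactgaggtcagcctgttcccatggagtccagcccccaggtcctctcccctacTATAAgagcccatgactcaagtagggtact
TATAA begins 30 bases before the start in both. TNAAGTG was matched once, in Sftpa1 on the forward strand, beginning 140 bases before the start. Among 32851 windows of this length in the table, 22.8% held TATAA and 10.1% held TNAAGTG, and a match is a description and not a bound site. Nkx2-1, which encodes the NKX2 protein of the lung epithelium, had 9, 0, 1 and 0 counts in UPBIG replicates 1 to 4, 0, 2, 2 and 18 in UPSMALL and 0, 0, 0 and 3 in DOWN. It was at 0 in UPBIG replicate 2 and at 1 in UPBIG replicate 3, the libraries richest in secretoglobin and surfactant transcripts. Nkx2-1 reached at most 0.661 CPM and was too low to be tested. A count of 0 allows up to 0.179 CPM of it in UPBIG replicate 2.

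Scgb1a1 had the highest median level per kilobase of the members in every group, and it was higher in all 4 UPBIG libraries than in any DOWN library. It encodes the main secretoglobin of club cells and lies on chromosome 19 at 9083636 to 9087958 (mm10, minus strand). The UPBIG libraries held 13.0, 212, 18.3 and 17.1 CPM in replicates 1 to 4, the UPSMALL libraries 7.44, 16.2, 8.90 and 16.5 CPM, and the DOWN libraries 9.48, 3.76, 5.07 and 5.47 CPM. In counts, these were 209, 3553, 312 and 251 in UPBIG, 140, 325, 200 and 449 in UPSMALL, and 219, 78, 100 and 116 in DOWN. Replicate 2 alone gave 82.2% of the UPBIG counts.

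The group means of Scgb1a1 were 65.2 ± 98.1 CPM in UPBIG, 12.3 ± 4.77 CPM in UPSMALL and 5.94 ± 2.47 CPM in DOWN (SD, n = 4 each). Without replicate 2, the UPBIG mean was 16.1 ± 2.76 CPM (SD, n = 3). Medians ran in the same order, 17.7, 12.6 and 5.27 CPM in UPBIG, UPSMALL and DOWN. UPBIG libraries and DOWN libraries were fully separated, as in 11.1% of all tested genes in this direction, while UPSMALL overlapped each of the other groups.

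Between UPBIG and DOWN the log2 fold change of Scgb1a1 was 3.45 ± 0.99 (SE), which passed edgeR's test with an adjusted p of 0.0401. Its size rested on 1 library. Without UPBIG replicate 2 it was 1.44 with an edgeR adjusted p of 0.00536, and without all 3 libraries that stood apart it was 1.34 with an edgeR adjusted p of 0.0192. The call was close to the threshold: it ended when any 1 UPSMALL library was left out (edgeR adjusted p 0.0511 to 0.0566) or any 1 DOWN library (0.0691 to 0.102), with fold changes of 3.30 to 3.78. It also ended with no low-count filter (edgeR adjusted p 0.0725), with only the 8 libraries compared (0.1) and with a block on replicate number (0.142). Other measures differed between these groups as well: mitochondrial transcripts took 4.05% to 5.19% of UPBIG counts and 2.49% to 3.15% of DOWN counts. Summed over 6 neutrophil markers, levels ran from 365 to 400 CPM in UPBIG and from 129 to 174 CPM in DOWN, most of it S100a8. The other 5 summed to 11.0 to 18.1 CPM in UPBIG and 14.3 to 27.5 CPM in DOWN, with Ly6g, a defining marker, at 0 in both. S100a9, the partner of S100a8, was at 0, 5.38, 3.40 and 1.43 CPM in UPBIG and at 4.20, 9.34, 12.4 and 3.11 CPM in DOWN. The part of these measures in the Scgb1a1 difference was not tested.

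Neither comparison with UPSMALL passed for Scgb1a1. Between UPBIG and UPSMALL its log2 fold change was 2.41 ± 0.93 (SE; edgeR adjusted p 0.207), and 0.40 without UPBIG replicate 2. For UPSMALL against DOWN it was 1.04 ± 0.94 (SE; edgeR adjusted p 0.718).

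Scgb3a2 followed Scgb1a1 into UPBIG replicate 2, but it was also high in UPSMALL replicate 4. It encodes the second large airway secretoglobin and lies on chromosome 18 at 43764289 to 43767399 (mm10, plus strand). The UPBIG libraries held 1.12, 34.8, 1.41 and 2.66 CPM, the UPSMALL libraries 1.54, 1.60, 2.31 and 8.89 CPM, and the DOWN libraries 1.56, 1.30, 1.52 and 0.283 CPM. The single high libraries gave 87.8% of the UPBIG counts and 68.2% of the UPSMALL counts, and the groups overlapped in each comparison.

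Group means of Scgb3a2 were 10.0 ± 16.6 CPM in UPBIG, 3.59 ± 3.55 CPM in UPSMALL and 1.17 ± 0.599 CPM in DOWN (SD, n = 4 each). Without the highest library of each group they were 1.73 ± 0.818 CPM in UPBIG, 1.82 ± 0.43 CPM in UPSMALL and 1.03 ± 0.66 CPM in DOWN (SD, n = 3 each). The log2 fold change was 3.10 ± 1.25 (SE; edgeR adjusted p 0.126) for UPBIG against DOWN. It was 1.47 ± 1.14 (SE; edgeR adjusted p 0.582) for UPBIG against UPSMALL and 1.63 ± 1.21 (SE; edgeR adjusted p 0.644) for UPSMALL against DOWN. None passed. Without UPBIG replicate 2 the value for UPBIG against DOWN was 0.56 and that for UPBIG against UPSMALL turned to -1.06, and without UPSMALL replicate 4 the value for UPSMALL against DOWN was 0.65.

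The secretoglobins did not keep a fixed ratio. Scgb3a2 made up 7.93%, 14.1%, 7.14% and 13.4% of the summed counts of both genes in UPBIG replicates 1 to 4. In UPSMALL the shares were 17.2%, 8.96%, 20.6% and 35%, and in DOWN 14.1%, 25.7%, 23.1% and 4.92%. In UPSMALL replicate 4, with 691 counts, the 95% Clopper-Pearson interval was 31.5% to 38.7%. In UPBIG replicate 2, with 4136 counts, it was 13% to 15.2%. The share of this most secretoglobin-rich library lay inside the ranges of UPSMALL and DOWN, but it was the highest of UPBIG. Its interval lay above those of UPBIG replicate 1 (4.77% to 12.2%) and replicate 3 (4.63% to 10.4%), and inside that of replicate 4 (9.74% to 17.9%). Mean shares were 10.6% ± 3.61 in UPBIG, 20.4% ± 10.9 in UPSMALL and 17% ± 9.44 in DOWN (SD, n = 4 each), which overlap. Per kilobase of annotated exon, which allows levels of different genes to be set side by side, median Scgb1a1 was 37.2, 26.4 and 11.1 CPM per kb in UPBIG, UPSMALL and DOWN, and median Scgb3a2 was 2.31, 2.22 and 1.60 CPM per kb.

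**Figure D2:**
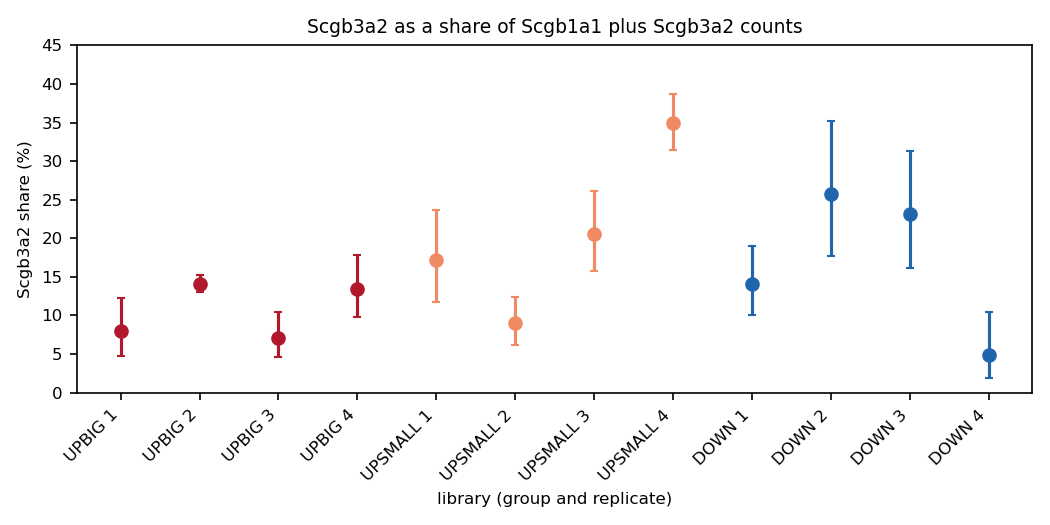
Scgb3a2 counts as a percentage of the summed Scgb1a1 and Scgb3a2 counts in each library, with 95% Clopper-Pearson intervals that cover counting error only. UPSMALL replicate 4 stands highest at 35%, and UPBIG replicate 2, with the most counts, is at 14.1%.

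Among the surfactant genes, Sftpc was at or under 1.32 CPM in 11 libraries and at 42.7 CPM in UPBIG replicate 3. It encodes surfactant protein C, the most specific product of type 2 cells, and lies on chromosome 14 at 70520949 to 70524081 (mm10, minus strand). Counts were 0, 17, 729 and 0 in UPBIG, 5, 16, 10 and 0 in UPSMALL, and 24, 8, 20 and 28 in DOWN. DOWN was thus the group in which every library held the transcript, while UPBIG held both the highest library and a pair at 0. A count of 0 allows up to 0.187 CPM in UPBIG replicate 1, 0.205 CPM in UPBIG replicate 4 and 0.11 CPM in UPSMALL replicate 4.

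Mean Sftpc was 10.9 ± 21.2 CPM in UPBIG, 0.377 ± 0.335 CPM in UPSMALL and 0.94 ± 0.395 CPM in DOWN (SD, n = 4 each), and 97.7% of the UPBIG counts came from replicate 3. The UPBIG median, 0.508 CPM, lay below the DOWN median of 1.03 CPM although the UPBIG mean lay above the DOWN mean. Log2 fold changes were 3.53 ± 1.78 (SE; edgeR adjusted p 0.224) for UPBIG against DOWN and 4.88 ± 1.96 (SE; edgeR adjusted p 0.222) for UPBIG against UPSMALL. For UPSMALL against DOWN it was -1.35 ± 1.95 (SE; edgeR adjusted p 0.839). Without UPBIG replicate 3 the value against DOWN turned to -1.43 and that against UPSMALL to -0.12, so no direction can be given for Sftpc in either.

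Sftpa1, which encodes the collectin surfactant protein A, peaked in the same library as Sftpc. It lies on chromosome 14 at 41131782 to 41136452 (mm10, plus strand). It had 4, 10, 54 and 0 counts in UPBIG, 0, 7, 8 and 0 in UPSMALL, and 10, 0, 1 and 0 in DOWN, or at most 3.16 CPM. UPBIG replicate 3 gave 79.4% of the UPBIG counts. In an edgeR fit without the low-count filter its adjusted p was 0.0974 for UPBIG against DOWN, 0.318 for UPBIG against UPSMALL and 0.923 for UPSMALL against DOWN.

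Sftpb, which encodes the surfactant protein needed for film formation, was near 0 throughout. It lies on chromosome 6 at 72304610 to 72314371 (mm10, plus strand). Counts were 0, 0, 1 and 1 in UPBIG, 0, 0, 4 and 3 in UPSMALL, and 0 in all 4 DOWN libraries. Both libraries with the most UPBIG secretoglobin or Sftpc therefore held at most 1 count of Sftpb, and no difference between groups was detectable at this depth.

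Sftpd, which encodes the collectin surfactant protein D, did not peak in UPBIG replicate 3, unlike Sftpc and Sftpa1. It lies on chromosome 14 at 41172214 to 41185149 (mm10, minus strand), and Mbl1 lies between it and Sftpa1. It had 2, 13, 3 and 0 counts in UPBIG, 8, 9, 9 and 27 in UPSMALL, and 0, 0, 13 and 0 in DOWN. UPSMALL was the group with counts in all 4 libraries, at 0.567 ± 0.284 CPM, against 0.165 ± 0.33 CPM in DOWN (SD, n = 4 each). UPBIG held 0.269 ± 0.346 CPM (SD, n = 4). The groups overlapped, and without the low-count filter the edgeR adjusted p was 0.809 for UPBIG against DOWN, 0.716 for UPBIG against UPSMALL and 0.546 for UPSMALL against DOWN. Scgb3a2 and Sftpd were both highest of the UPSMALL libraries in replicate 4, where Sftpc and Sftpa1 had 0 counts.

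Summed over genes, the secretoglobins ranged from 14.1 to 247 CPM in UPBIG, from 8.98 to 25.4 CPM in UPSMALL and from 5.06 to 11.0 CPM in DOWN. The surfactant genes ranged from 0.0682 to 46.1 CPM in UPBIG, from 0.691 to 1.60 CPM in UPSMALL and from 0.385 to 1.72 CPM in DOWN. In these bulk samples, fewer cells of a type and less RNA per cell cannot be told apart.

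**Figure D3:**
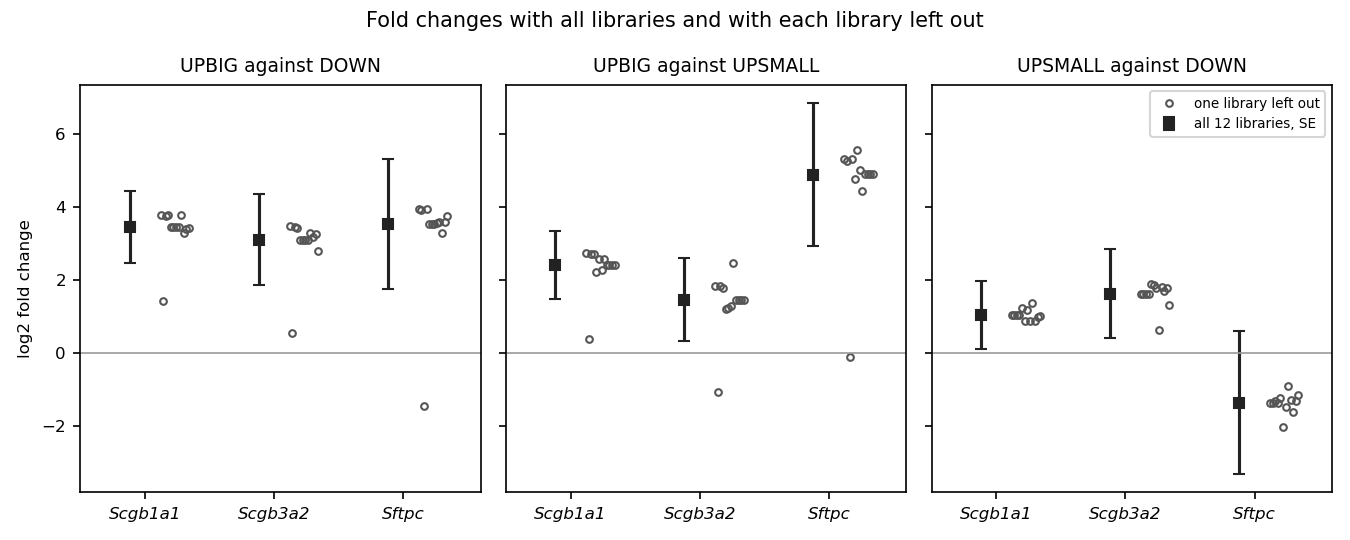
Log2 fold change of the 3 tested members in each comparison, with all 12 libraries (squares, with SE) and with each library left out in turn (open circles). In the comparisons that include UPBIG, a single circle far below the rest marks the loss of UPBIG replicate 2 for the secretoglobins or of UPBIG replicate 3 for Sftpc. For UPSMALL against DOWN, the lowest Scgb3a2 circle marks the loss of UPSMALL replicate 4.

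The genes whose log2 levels ran most like a member's were sought among about 10060 tested genes. Over the 12 libraries, Scgb3a2 was most like Scgb1a1, with a Pearson r of 0.826. Scgb1a1 itself was most like Trpm2, St6galnac4 and Slc36a4 (r of 0.866, 0.862 and 0.861), and Sftpc most like Mfn1, Ubr7 and Pot1a (0.880, 0.860 and 0.819). Without UPBIG replicate 2, the genes most like Scgb1a1 were Wdr1, Mgst2 and Slc36a4 (r of 0.922, 0.893 and 0.889 over 11 libraries), and Scgb1a1 was no longer among the 3 genes most like Scgb3a2. Without UPBIG replicate 3, Nrf1, Cep97 and Mfn1 were most like Sftpc (0.889, 0.880 and 0.870). These libraries share a group structure and depth, and no r is more than a description.

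Of 24 other club and secretory cell genes, 22 had a count and 12 were tested. Between UPBIG and DOWN 0 were called higher and 2 lower by edgeR, against 2 higher and 2 lower at an unadjusted p under 0.05, and the median log2 fold change was 0.47, beside -0.03 over all tested genes. With 12 genes tested, 0 called higher is not far from the 9.03% of all genes. DESeq2 called 1 higher and 2 lower, and limma-voom 0 and 2. The 1 that DESeq2 called higher was Pigr, which encodes the receptor that carries IgA across epithelium and is named after its values were seen. Without the 3 libraries, edgeR called 0 higher and 3 lower of 14. The genes called lower were Ldhb, a lactate dehydrogenase subunit, at -1.26 ± 0.17 (SE; edgeR adjusted p 3.13e-05), and Hp, haptoglobin, at -1.34 ± 0.28 (SE; edgeR adjusted p 0.00521). Hp, listed here because airway secretory cells express it, is an acute phase protein and is known from macrophages too. Neither marks club cells alone.

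Cyp2f2, the cytochrome P450 that marks club cells, had 4, 49, 0 and 11 counts in UPBIG, 5, 35, 31 and 64 in UPSMALL, and 3, 8, 0 and 2 in DOWN. Its highest UPBIG library was therefore the one richest in Scgb1a1. Its log2 fold change for UPBIG against DOWN was 2.64 ± 1.12 (SE; edgeR adjusted p 0.117), with an edgeR adjusted p of 0.0289 with no low-count filter and 0.0455 without UPBIG replicate 3. Without UPBIG replicate 2 it was 1.07. Scgb3a1, another secretoglobin, of upper airway secretory cells, did not share that peak: it stood at 5.26 CPM in UPBIG replicate 2 but at 25.2 CPM in UPSMALL replicate 4, against 3.30 to 9.53 CPM in the other 10. Reg3g, a secreted lectin of inflamed airways, reached 6060 counts in UPSMALL replicate 4, against 298 to 1506 elsewhere. For UPBIG against UPSMALL 1 of the 12 tested genes was called lower, Ldhb at -1.01 ± 0.17 (SE; edgeR adjusted p 0.000772), against 4 lower at an unadjusted p under 0.05 and 2 lower by DESeq2 and limma-voom each. Between UPSMALL and DOWN edgeR called 0 of them, against 4 higher at an unadjusted p under 0.05, with 1 called by DESeq2 and 0 by limma-voom.

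The genes listed for surfactant processing and type 2 cells that edgeR called between UPBIG and DOWN were all lower in UPBIG. Of 27 listed genes, 23 had a count and 14 were tested. For UPBIG against DOWN 0 were called higher and 5 lower by edgeR, beside 9.03% higher and 8.48% lower among all tested genes. The median log2 fold change of the 14 was -0.32, beside -0.03 over all tested genes. At an unadjusted p under 0.05 edgeR gave 1 higher and 5 lower, DESeq2 called 0 and 5, limma-voom 1 and 5, and edgeR without the 3 libraries 0 and 5. Napsa, the protease that cuts the precursor of surfactant protein B, stood at 27.3 ± 9.70 CPM in UPBIG and 95.2 ± 10.2 CPM in DOWN (SD, n = 4 each), a log2 fold change of -1.80 ± 0.19 (SE; edgeR adjusted p 2.86e-06). It was also lower in UPBIG than in UPSMALL, at -1.25 ± 0.19 (SE; edgeR adjusted p 0.000327).

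The other genes of this list that fell in UPBIG against DOWN were Cd74 (log2 fold change -3.45), Cebpa (-0.67), Etv5 and Acot7, the last 2 named after their values were seen. Cd74 encodes the invariant chain of class II molecules and Cebpa a transcription factor that macrophages also use, so these are not type 2 cell genes alone. Summed dendritic cell markers ran from 1.77 to 2.63 CPM in UPBIG and from 34.5 to 71.6 CPM in DOWN, with all 6 above 0 in both groups. Summed T and NK cell markers ran from 1.66 to 7.32 CPM in UPBIG and from 24.1 to 81.8 CPM in DOWN. The part of these cells in the Cd74 difference was not tested.

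Of 6 genes listed as defining type 2 cells, 3 were almost absent and 3 were present in every library. Lamp3, of the lamellar body membrane, had 7 counts in UPBIG replicate 3, 2 in DOWN replicate 3 and 0 elsewhere. Cxcl15, a chemokine of lung epithelium, had 21 counts in UPBIG replicate 2, 2 in UPBIG replicate 3 and 0 elsewhere. Slc34a2, the phosphate transporter of type 2 cells, had no count in any library. Abca3, the lipid transporter of lamellar bodies, by contrast lay between 5.59 and 11.5 CPM in all 12 libraries, with no peak where Sftpc peaked. Napsa, described above, ran from 16.6 to 102 CPM, and was at 69.6 CPM in UPSMALL replicate 4, where Sftpc had 0 counts. The part of type 2 cells in the Napsa level was not tested. Lyz1, a lysozyme gene of type 2 cells, ran from 18.8 to 85.7 CPM, and its counts are uncertain because Lyz2, the macrophage lysozyme, is a close copy. It averaged 55.2 ± 21.8 CPM in UPBIG and 29.0 ± 15 CPM in DOWN (SD, n = 4 each), a log2 fold change of 0.93 ± 0.35 (SE; edgeR adjusted p 0.0946) that passed the test with limma-voom (adjusted p 0.0254) and without DOWN replicate 3 (edgeR adjusted p 0.00281). For UPBIG against UPSMALL edgeR called 0 higher and 2 lower of the 14, Napsa and Cd74, against 2 higher and 5 lower at an unadjusted p under 0.05. Cd74 was the 1 gene called for UPSMALL against DOWN, a call that ended without UPBIG replicate 3, UPSMALL replicate 1 or 2, or any 1 DOWN library.

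**Figure D4:**
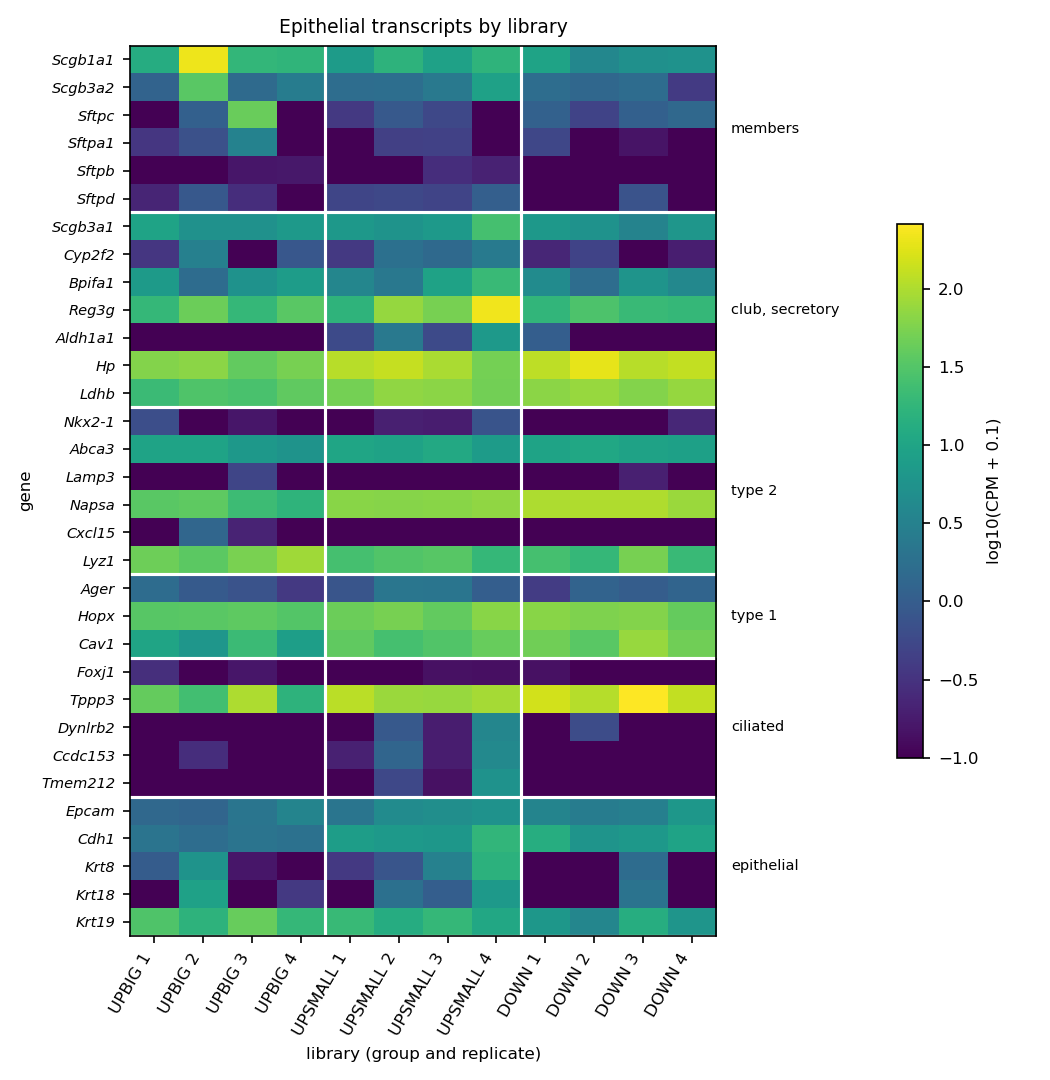
Levels of the members and of genes from the type 2, type 1, club, ciliated and epithelial lists in each library, as log10(CPM + 0.1). The bright cells of Scgb1a1 and Scgb3a2 in UPBIG replicate 2 and of Sftpc in UPBIG replicate 3 stand alone in their rows, while UPSMALL replicate 4 is bright for Reg3g, Krt8 and Tmem212.

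Krt8 and Krt18, a keratin pair of simple epithelium, were highest in the same UPBIG and UPSMALL libraries as Scgb3a2, while Krt19, another keratin of simple epithelium, was lowest of its group in both. Krt18 had 0, 151, 0 and 4 counts in UPBIG, 0, 35, 21 and 182 in UPSMALL, and 0, 0, 38 and 0 in DOWN. Its partner Krt8 had 14, 92, 1 and 0 counts in UPBIG, 5, 14, 70 and 428 in UPSMALL, and 0, 0, 30 and 0 in DOWN. UPBIG replicate 3, the Sftpc library, had 1 count of Krt8 and 0 of Krt18. Summed over all 6 epithelial markers, the levels were 22.5 to 43.3 CPM in UPBIG, 20.5 to 42.4 CPM in UPSMALL and 6.36 to 20.2 CPM in DOWN. Krt19 made up much of these sums, and the other 5 markers summed to 3.18, 16.4, 2.11 and 3.75 CPM in UPBIG replicates 1 to 4, to 2.28, 7.65, 11.7 and 31.4 CPM in UPSMALL and to 3.33, 2.74, 6.95 and 6.32 CPM in DOWN. Epcam, the epithelial adhesion molecule, stood at 1.97 ± 0.987 CPM in UPBIG and 3.80 ± 1.70 CPM in DOWN (SD, n = 4 each), a log2 fold change of -0.95 ± 0.42 (SE; edgeR adjusted p 0.131, and 0.0294 with library totals alone). The part of epithelial cells in the members' levels was not tested.

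Of 20 epithelial structure genes, 18 had a count and 10 were tested. Between UPBIG and DOWN, edgeR called 1 higher and 1 lower, as did DESeq2, limma-voom and the edgeR fit without the 3 libraries. Among all tested genes edgeR called 9.03% higher and 8.48% lower, not far from these counts. Krt19 was higher at 1.86 ± 0.39 (SE; edgeR adjusted p 0.00487), with 29.6, 16.1, 41.2 and 18.8 CPM in UPBIG and 6.41, 3.61, 13.3 and 5.89 CPM in DOWN. Cdh1, which encodes E-cadherin, was lower at -2.28 ± 0.36 (SE; edgeR adjusted p 0.000166), with 1.93, 1.55, 1.99 and 1.77 CPM in UPBIG and 13.4, 5.83, 6.44 and 9.62 CPM in DOWN. The UPBIG libraries rich in Scgb1a1 or Sftpc did not stand out among the others of their group for Cdh1. Cdh1 was also lower in UPBIG than in UPSMALL, at -2.41 ± 0.36 (SE; edgeR adjusted p 0.000237), and it was the 1 gene of the list called there. In the comparison of UPSMALL with DOWN edgeR called 0, against 2 higher and 1 lower at an unadjusted p under 0.05, with 1 called by DESeq2 and 0 by limma-voom.

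Alveolar type 1 genes were mostly lower in UPBIG than in DOWN where they were called. Of 20 listed, 10 were tested and edgeR called 1 higher and 3 lower, beside 9.03% higher and 8.48% lower among all tested genes. The median log2 fold change of the 10 was -0.58, beside -0.03 over all tested genes. Cav1, which encodes caveolin 1, fell by 2.17 on the log2 scale (SE 0.38; edgeR adjusted p 0.00195). Hopx, a homeodomain cofactor of type 1 cells, fell by 0.71 (SE 0.16; edgeR adjusted p 0.004). The other gene called lower was Cav2, whose call ended without UPBIG replicate 1, 2 or 4 or any 1 DOWN library, and the 1 called higher was Sema3e, a semaphorin, at 1.97 ± 0.48 (SE; edgeR adjusted p 0.00729). Ager, the receptor that marks type 1 cells, had 4 to 24 counts in UPBIG, 13 to 46 in UPSMALL and 7 to 25 in DOWN. It was not called between UPBIG and DOWN, at -0.10 ± 0.65 (SE; edgeR adjusted p 0.944). Aqp5 and Rtkn2, also on the list, reached at most 0.65 and 0.357 CPM, while Cav1, Cav2 and Hopx were at 6.04 CPM or more in every library. The part of type 1 cells in the differences of the called genes was not tested. DESeq2 called 1 higher and 4 lower, limma-voom 1 and 3, and edgeR without the 3 libraries 1 and 4. Between UPBIG and UPSMALL edgeR called 0 higher and 2 lower, Cav1 and Pdpn, whose calls ended without UPBIG replicate 1, 2 or 4 or UPSMALL replicate 1 or 4, and for Cav1 also without UPSMALL replicate 3. At an unadjusted p under 0.05 there were 0 and 5. DESeq2 called 0 and 3 there, limma-voom 0 and 2, and edgeR without the 3 libraries 0 and 1. Between UPSMALL and DOWN all 3 tools called 0, against 1 higher at an unadjusted p under 0.05 by edgeR.

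Of 18 ciliated cell genes, 3 passed the filter. Tppp3, a tubulin polymerising protein, was called lower in UPBIG than in DOWN at -1.85 ± 0.53 (SE; edgeR adjusted p 0.0405), a call that ended when any 1 library other than UPBIG replicate 3 was left out (edgeR adjusted p up to 0.104). Cfap126, of the cilium base, was called higher at 2.29 ± 0.35 (SE; edgeR adjusted p 0.000134). Foxj1, which encodes the factor that switches on the ciliated cell programme, had at most 3 counts in any library. For UPBIG against UPSMALL edgeR called 1 of the 3 tested genes higher, Cfap126, and 0 without the 3 libraries that stood apart. That call also ended without UPBIG replicate 2, 3 or 4 or UPSMALL replicate 1, 2 or 3. In the comparison of UPSMALL with DOWN it called 0, against 1 higher at an unadjusted p under 0.05, and DESeq2 and limma-voom called 0. Tmem212, Ccdc153 and Dynlrb2, found in ciliated cells, had 147, 109 and 97 counts in UPSMALL replicate 4, where Scgb3a2 was high, and at most 3 counts in any UPBIG library. They had 9, 24 and 16 counts in UPSMALL replicate 2, where Scgb3a2 was at 1.60 CPM, and Dynlrb2 had 11 in DOWN replicate 2.

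Of the macrophage genes of surfactant uptake and breakdown that edgeR called between UPBIG and DOWN, most were higher in UPBIG. All 16 listed were tested. For UPBIG against DOWN edgeR called 5 higher and 2 lower, beside 9.03% higher and 8.48% lower among all tested genes. With 16 genes tested, 2 called lower is not far from that share. The median log2 fold change was 0.17, beside -0.03 over all tested genes. DESeq2 and limma-voom each called 5 higher and 3 lower, and edgeR without the 3 libraries 5 and 1. Abcg1, the sterol exporter whose loss fills macrophages with surfactant lipid in mice, stood at 795 ± 68.9 CPM in UPBIG and 215 ± 40.9 CPM in DOWN (SD, n = 4 each), a log2 fold change of 1.89 ± 0.14 (SE; edgeR adjusted p 1.81e-08). Lpl, lipoprotein lipase, was higher at 0.98 ± 0.11 (SE; edgeR adjusted p 5.11e-06) and Lipa, the lysosomal acid lipase, at 0.88 ± 0.13 (SE; edgeR adjusted p 0.000126). The genes called lower were Prdx6, a peroxiredoxin that also cleaves surfactant phospholipid, at -0.44 ± 0.13 (SE; edgeR adjusted p 0.0229), and Csf2rb, a receptor chain for GM-CSF, at -0.33 ± 0.11 (SE; edgeR adjusted p 0.0431). The Prdx6 call ended without UPBIG replicate 1, 3 or 4 or DOWN replicate 1 or 2, and that of Csf2rb without UPBIG replicate 1, 2 or 4, UPSMALL replicate 1 or any 1 DOWN library. UPBIG replicates 2 and 3 did not stand out for Abcg1: it was at 779, 711, 875 and 816 CPM in UPBIG replicates 1 to 4.

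For UPBIG against UPSMALL edgeR called 3 of these genes higher and 0 lower, against 5 higher and 1 lower at an unadjusted p under 0.05, and DESeq2 and limma-voom also called 3 and 0. For UPSMALL against DOWN edgeR called 0, against 4 higher at an unadjusted p under 0.05, with 1 called by DESeq2 and 0 by limma-voom.

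Among 13 other secreted defence proteins of lavage, 11 had a count and 10 were tested. Slpi, the secretory leukocyte protease inhibitor made by airway epithelium and macrophages, was the 1 gene edgeR called in each comparison. It stood at 994 ± 154 CPM in UPBIG, 553 ± 57.5 CPM in UPSMALL and 243 ± 59.7 CPM in DOWN (SD, n = 4 each). Its log2 fold changes were 2.03 ± 0.15 (SE; edgeR adjusted p 3.36e-08) for UPBIG against DOWN and 0.85 ± 0.15 (SE; edgeR adjusted p 0.00141) for UPBIG against UPSMALL. For UPSMALL against DOWN it was 1.19 ± 0.15 (SE; edgeR adjusted p 0.000471). UPBIG replicate 2, the secretoglobin-rich library, held 880 CPM of Slpi, the lowest level of a group that ran up to 1207 CPM. The part of airway epithelium in the Slpi level was not tested.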

How the data were processed

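RNA of lysed lavage cells was copied into full-length cDNA from polyadenylated transcripts with a SMART-Seq kit and amplified, per the labels' protocols, so capture and amplification enter every value. The authors deposited 1 table of expected counts per gene and library. Per the submitters' processing notes it was made with STAR and RSEM on mm10. No version, annotation or strand setting is given in the sources used here, and a gene and its antisense partner cannot be told apart. Of the values, 13.8% were not whole, and counts were rounded. Symbols, positions and exon lengths came from GENCODE annotation of mm10, which named 26808 of 26855 genes. Gene lists were stripped of the members.

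One edgeR fit (edgeR 4.0.16, R 4.3.3) took in all 12 libraries (TMM, filterByExpr, robust quasi-likelihood F tests on the groups, no block), with Benjamini-Hochberg adjustment over the 12625 genes tested. Standard errors were derived from the F statistics. CPM uses unrounded counts. Intervals are Clopper-Pearson at 95%, and a count of 0 was read with a floor of 3 counts. Reads were amplified by PCR with no molecular identifiers, so both cover counting error only. Alternatives to the scaling were library totals alone and size factors in the style of DESeq2. Other tools were limma-voom with quality weights (limma 3.58.1) and DESeq2 1.42.0. Other filters were none and at least 5 CPM in 4 libraries. Other designs used a replicate block, a fit of only the 8 libraries compared, each library left out, and, chosen after seeing the data, UPBIG replicates 2 and 3 and UPSMALL replicate 4 left out together. Methods were tested on simulated data with known changes.

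The members, the gene lists and the rule for other named genes were chosen with earlier results of these data known. The rule took defining epithelial genes, up to 3 called genes per list, comparison and direction, and the 3 tested genes most like each tested member in log2 CPM (prior count 2, average log2 CPM of at least 0). Genes outside it, such as Reg3g, Bpifa1, Tmem212, Ccdc153 and Dynlrb2, were named after their values were seen.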

Additional observations from a re-analysis of the deposited data

Results flagged for a closer look

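In groups of 4 libraries, the gap between the highest or lowest library and its nearest neighbour was divided by the range of the group and set against Dixon's critical value for 4 values at the 95% level. Of 44 groups of values checked, 11 passed it, and the checks share libraries and genes. Chance gives about 1 in 20 only for normally distributed values. CPM resting on a few counts are not so distributed, so the 11 cannot be set against that rate. Among the secretoglobins, UPBIG replicate 2 stood apart for Scgb1a1 (0.974) at 212 CPM, against 13.0 to 18.3 CPM in the other UPBIG libraries. It also stood apart for Scgb3a2 (0.954) at 34.8 CPM, against 1.12 to 2.66 CPM, and for the sum of both genes (0.976) at 247 CPM, against 14.1 to 19.8 CPM. UPSMALL replicate 4 stood apart for Scgb3a2 (0.895) at 8.89 CPM, against 1.54 to 2.31 CPM.

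Among the surfactant genes, UPBIG replicate 3 stood apart for Sftpc (0.976) at 42.7 CPM, against 0 to 1.02 CPM, and for the sum of the 4 genes (0.95) at 46.1 CPM, against 0.0682 to 2.39 CPM. UPSMALL replicate 4 stood apart for Sftpd (0.917) at 0.992 CPM, against 0.40 to 0.45 CPM. DOWN replicate 3 was the 1 DOWN library with Sftpd, on 13 counts, and the ratio is always 1 where the other libraries are at 0. DOWN replicate 1 stood apart for Sftpa1 (0.883) on 10 counts. Summed alveolar type 1 genes stood apart in UPBIG replicate 3 (0.837), at 138 CPM against 87.9 to 96.1 CPM, and in UPSMALL replicate 4 (0.895), at 228 CPM against 155 to 163 CPM. In both libraries Cav1, Cav2, Hopx and Pdpn were the highest of their group, while Ager was not.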

How the results depend on the processing

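Only Scgb1a1 between UPBIG and DOWN was called among the members. Its log2 fold change lost the call at 3.46 with no low-count filter, at 3.46 with only the 8 libraries compared, and at 2.47 with the replicate block (edgeR adjusted p 0.142). Over the fits that left out 1 library it ran from 1.44 to 3.79. DESeq2 gave fold changes for the 3 tested members, but no adjusted p for any member, so it made no call on Scgb1a1 either way. Scgb3a2 for UPBIG against UPSMALL ran from -1.06 (without UPBIG replicate 2) to 2.46 over those fits. Sftpc for UPBIG against DOWN ran from -1.43 to 3.95, and for UPBIG against UPSMALL from -0.12 to 5.56, both turning without UPBIG replicate 3. With limma-voom Sftpc for UPBIG against DOWN was -0.51. Without the 3 libraries together it was -7.21 (edgeR adjusted p 0.0192), and -6.33 for UPBIG against UPSMALL, where UPBIG is left with 0 counts and the fitted size depends on the prior count. With a floor of 3 counts over both UPBIG libraries, Sftpc was at least 9.66-fold lower than in DOWN there, in libraries kept after its values were seen. The other values of the tested members kept their direction and side of the threshold in every alternative that gave a value.

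Called genes over the whole table numbered 2210 between UPBIG and DOWN (1140 higher and 1070 lower) and 3755 with library totals alone (518 higher and 3237 lower), where the median log2 fold change of all genes was -0.36. Between UPBIG and UPSMALL there were 720 (406 higher and 314 lower), 1622 with library totals alone (189 higher and 1433 lower; median -0.31) and 315 without the 3 libraries. Between UPSMALL and DOWN 144 (75 higher and 69 lower) became 157 with library totals alone (61 higher and 96 lower), 393 with DESeq2, 458 with no low-count filter, 275 with the replicate block, and 58 to 179 with 1 library left out. For 23 other genes named with a fold change, 594 of 668 alternative values kept direction and side of the threshold, 69 lost a call (of Tppp3, Cav1, Cav2, Pdpn, Cfap126, Cd74, Prdx6 and Csf2rb), 5 gained one (of Cyp2f2, Epcam and Lyz1) and none turned. Deviations from the group means of same-numbered libraries correlated at -0.03 to 0.15 over 12 pairs, 5 of them over 0.1, against -0.12 to 0.12 for differently numbered ones. The replicate 2 pairs, at 0.13 to 0.15, lay above every differently numbered pair. Of the differently numbered pairs, only UPBIG replicate 3 with UPSMALL replicate 4 (0.112) and UPBIG replicate 4 with UPSMALL replicate 3 (0.115) were over 0.1. Among the UPSMALL libraries, UPBIG replicates 3 and 4 did not correlate best with their own number. Among the DOWN libraries, each UPBIG library did, at 0.0381, 0.134, 0.0675 and 0.0816 for replicates 1 to 4. The labels do not pair the libraries and the numbers were not read as pairs, but pairing is not excluded. Under the replicate block Scgb3a2 was at 1.89 for UPBIG against DOWN and 0.39 for UPBIG against UPSMALL. The cause of these changes was not tested. Depth limits Sftpa1, Sftpb and Sftpd, whose counts were too low for the test.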
